A study of Sus scrofa with 24 samples.

Results

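Heat shock proteins and other chaperones were examined in longissimus dorsi, a long back muscle, of 24 pigs. The genes were taken by name: HSPA, HSPB, HSPD, HSPE, HSPH, HSP90, DNAJA, DNAJB, DNAJC and BAG genes followed by a number, together with CRYAB, and without the HSPBP and HSPBAP genes. The rule found 64 of the 12017 genes in the table, carried by 154 of its 22154 listed transcripts. They comprise 7 small heat shock proteins, 12 genes of the HSP70 and HSP110 family, 1 gene named as a pseudogene of HSPA8 (HSPA8P5), 2 HSP90 genes, 2 mitochondrial chaperonin genes, 34 J proteins and 6 BAG genes. HSPA9, HSP90B1 and HSPA4L matched no row and are not analysed here.

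The animals were F1 crosses of Duroc boars and Luchuan sows, kept on 1 farm under 1 diet and slaughtered at 210 ± 6 days of age. Out of 265 such animals, 12 are labelled as having a high and 12 a low content of intramuscular fat (IMF), which is fat deposited within the muscle. Sampling took place 25 minutes after death, and libraries of polyA RNA were read as pairs of 150 bases. Each library is 1 animal, and the animals of both groups share breed, farm and slaughter procedure. No label of sex, litter or fat percentage is used here. In either group, some animals share the first 9 digits of their identifier with another animal of that group. The labels do not say what these digits stand for, and a relation between such animals was not tested. The tests took all animals as independent, except in the alternative setting with 1 animal per 9 shared identifier digits. Animals are numbered within a group in the order of the deposited samples.

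Chaperones bind unfolded or partly folded proteins and keep them from aggregating. In the central cycle a J protein hands a client to an HSP70, a nucleotide exchange factor (an HSP110 or a BAG protein) releases it, and HSP90 completes the folding of many signalling proteins. Small heat shock proteins hold clients without using ATP, and in striated muscle several of them bind desmin, filamin C or titin at the Z-disc, where BAG3 and HSPB8 pass damaged proteins to autophagy. Heat shock factor 1 induces a subset of these genes after heat, exercise, lack of oxygen or other protein damage.

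The deposited values are FPKM, fragment numbers scaled to transcript length and library size, so levels of different genes can be set side by side per length. A gene's level is the sum of its listed transcripts, and the total over all genes lay between 351119 and 415572 per library. The members together held 0.460% to 2.557% of that sum, with a median of 0.884% in high IMF and 0.761% in low IMF animals. The 10 most abundant genes of the whole table held 20.2% of the sum in high IMF animal 7 and 18.5% in low IMF animal 10, against a median of 28.4% over all 24 animals. Low IMF animal 10 was the highest of all animals in 20 of the 64 members. The same share over all genes is not at hand, so this count is no result about the members. Fast fibre markers (11 of 12 listed genes measured) summed to 18013 to 43141 FPKM and slow fibre markers (10 of 10) to 1485 to 7890 FPKM over the 24 animals, so the muscle label and its fibre markers match.

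No member differed between high and low IMF at an adjusted p under 0.05. The test was limma on log2(FPKM + 1) with Benjamini-Hochberg adjustment over 11757 genes whose mean reached 0.5 FPKM. It covered 63 members, all but BAG4, a BAG protein that binds death receptors, which had means of 0.505 FPKM in high and 0.457 FPKM in low IMF animals. Of all genes tested, 0.0425% were called higher and 0.00851% lower in high IMF. At an unadjusted p under 0.05, 2 members (3.17%) were higher in high IMF, HSPE1 and HSPA4, and 0 were lower, while 6.79% of all genes were higher and 0.893% lower. With 2 members called, the lower share is no result about the members, and in some settings given below their share exceeded that of the whole table.

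Most members had higher values in high IMF, and so had most genes of the table. Of the 63, 49 (77.8%) had a log2 fold change (high minus low IMF) above 0, with a median of 0.14, while 73.4% of all genes tested were above 0, with a median of 0.077. After scaling of the libraries by trimmed mean of M values (TMM), 41 members (65.1%) were above 0 with a median of 0.046, against 49.95% and a median of -0.00021 for all genes, and the unadjusted calls over the whole table turned from 798 higher and 105 lower to 331 higher and 267 lower. No gene of the table had groups that did not overlap. Leaving out low IMF animal 10 raised the members higher at an unadjusted p under 0.05 from 2 to 14 (22.2%), beside 14.1% of all genes (11 and 11.4% without high IMF animal 7 as well), and the smallest adjusted p of any member was then 0.132 (HSPE1, limma). With that animal left out and TMM scaling, the count was 4 members (6.35%) beside 3.27% of all genes. With all animals it was 1 member under TMM scaling (2.82% of all genes), 1 under upper-quartile scaling (2.53%) and 4 over reference transcripts alone (6.97%).

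**Figure D1:**
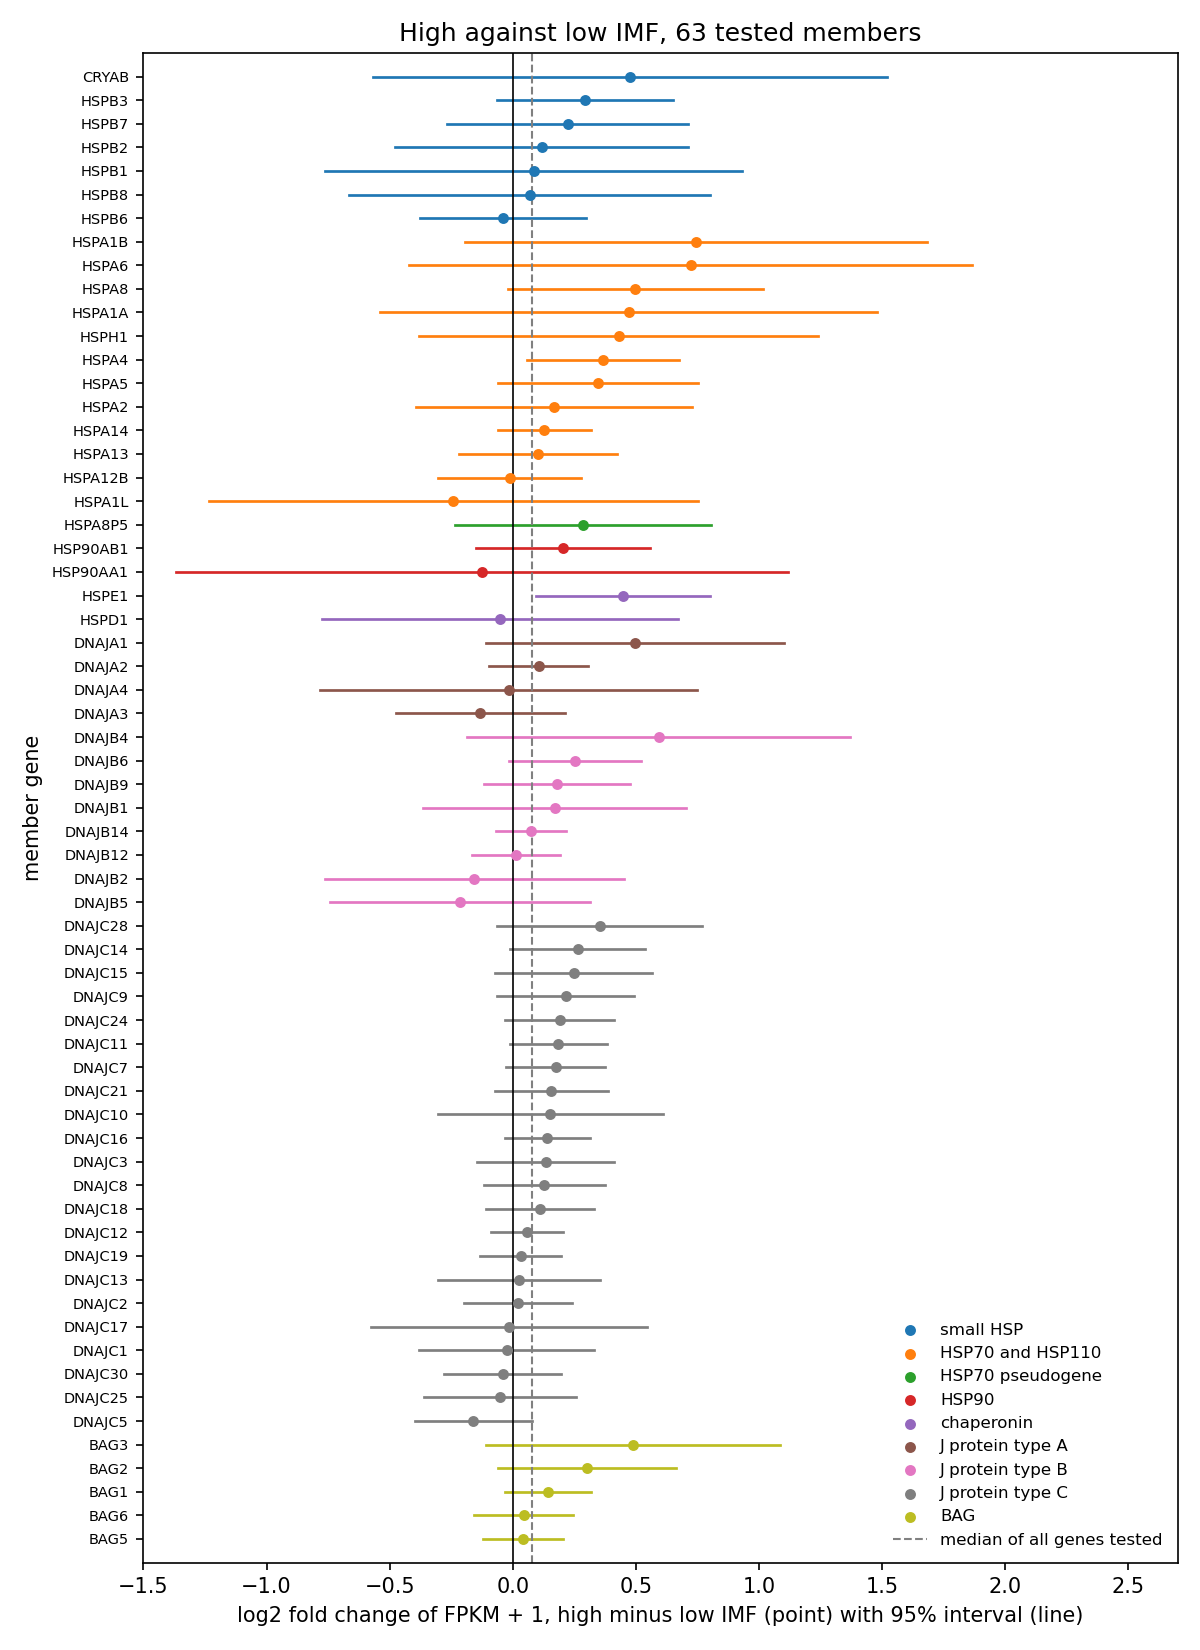
Log2 fold change of FPKM + 1 (horizontal axis, high minus low IMF) of the 63 tested members, grouped by family, as points with 95% limma intervals as lines; the dashed line is the median of all genes tested, 0.077. The intervals of HSPE1 and HSPA4 lie above 0, and those of HSP90AA1, HSPA6, CRYAB and HSPA1A are the widest.

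Among the small heat shock proteins, HSPB1 and CRYAB were the most abundant and varied most between animals, and none of the 7 was called. HSPB1 binds actin filaments and unfolding proteins and had the highest mean of all members. It lay at 161, 880 and 5339 FPKM (lowest, median and highest) in high IMF and at 475, 764 and 1918 FPKM in low IMF animals, with means of 1395 ± 1474 and 977 ± 516 FPKM (SD, n = 12 each). High IMF animal 6 was the highest and high IMF animal 12 the lowest of all 24, so the high IMF group spanned the whole low IMF range. The log2 fold change was 0.085 (SE 0.41, limma adjusted p = 0.975), and it became -0.028 under TMM scaling.

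CRYAB, the lens and muscle protein alpha B-crystallin that guards desmin, lay at 23.6, 215 and 1495 FPKM in high IMF and at 36.7, 144 and 403 FPKM in low IMF animals. The same animals, high IMF 6 and 12, stood at both ends, and the groups overlapped. Its log2 fold change was 0.48 (SE 0.51, limma adjusted p = 0.834), with means of 344 ± 401 and 174 ± 104 FPKM (SD, n = 12 each). Over its reference transcripts alone, without the isoform added by the assembly, the log2 fold change was -0.82.

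HSPB6, a small heat shock protein known from the relaxation of smooth and cardiac muscle, was among the steadiest. It had means of 95.3 ± 30.7 FPKM in high and 96.5 ± 23.8 FPKM in low IMF animals (SD, n = 12 each), and a log2 fold change of -0.04 (SE 0.16, limma adjusted p = 0.970). HSPB8, the partner of BAG3, had a median of 51.9 FPKM in high and 66.9 FPKM in low IMF animals and ranges of 31.2 to 208 and 27.4 to 194 FPKM. HSPB7, a filamin C binding protein of heart and skeletal muscle, ranged from 31.3 to 130 FPKM in high and from 20.4 to 91.6 FPKM in low IMF animals. For both genes the ranges overlapped widely, with the highest animal in the high and the lowest in the low IMF group, and the log2 fold changes were 0.069 for HSPB8, which turned to -0.042 under TMM scaling, and 0.22 for HSPB7.

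HSPB2 and HSPB3 form a complex with each other in muscle. HSPB2 had means of 29.5 ± 14.4 FPKM in high and 27.3 ± 17.8 FPKM in low IMF animals (SD, n = 12 each). HSPB3 lay at 7.46, 10.2 and 17.0 FPKM in high and at 4.67, 7.66 and 22.98 FPKM in low IMF animals. Of the high IMF animals, 11 of 12 exceeded the low IMF median of HSPB3, but the highest value of all was that of low IMF animal 10, and the log2 fold change was 0.29 (SE 0.17, limma adjusted p = 0.704). As a group, 6 of the 7 small heat shock proteins were above 0, with a median of 0.12, and 4 of 7 under TMM scaling.

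The HSP70 and HSP110 genes had the highest median log2 fold change of the families with more than 2 tested members, 0.36 over 12 genes, and 10 of the 12 were above 0. Under TMM scaling the same count held, with a median of 0.25. HSPA4, an HSP110-type exchange factor for HSP70, was 1 of the 2 members with an unadjusted p under 0.05. Its level was 13.4, 21.5 and 34.7 FPKM (lowest, median and highest) in high IMF and 10.8, 15.3 and 28.5 FPKM in low IMF animals. Of the high IMF animals, 10 of 12 exceeded the low IMF median, yet the ranges overlapped. The log2 fold change was 0.37 (SE 0.15, limma adjusted p = 0.560), and its means were 21.8 ± 6.33 and 16.6 ± 4.69 FPKM (SD, n = 12 each).

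HSPA8, the constitutive HSP70 of the cytosol that also strips clathrin from vesicles, was the most abundant gene of the family. It lay at 242, 423 and 809 FPKM in high IMF and at 96.3, 347 and 490 FPKM in low IMF animals. High IMF animals 10, 2 and 6 exceeded every low IMF animal, and low IMF animals 12 and 2, at 96.3 and 125 FPKM, lay below every high IMF animal. The log2 fold change was 0.50 (SE 0.25, limma adjusted p = 0.659).

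HSPA5, the HSP70 of the endoplasmic reticulum known as BiP, had means of 22.95 ± 6.18 FPKM in high and 18.5 ± 7.93 FPKM in low IMF animals (SD, n = 12 each), and 10 of 12 high IMF animals exceeded the low IMF median. HSPH1, the heat-inducible HSP110, ranged from 3.19 to 46.1 FPKM in high and from 2.89 to 24.9 FPKM in low IMF animals. Their log2 fold changes were 0.35 (SE 0.20, limma adjusted p = 0.695) and 0.43 (SE 0.40, limma adjusted p = 0.811). The upper part of the HSPH1 range held animals of both groups, with low IMF animals 2 and 10 at 24.9 and 23.2 FPKM.

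HSPA6 and the genes of the HSPA1 locus were the least even of the family. HSPA6, which is hardly made without stress in most tissues, ranged from 2.83 to 129 FPKM in high and from 1.78 to 54.9 FPKM in low IMF animals, and its log2 fold change was 0.72 (SE 0.56, limma adjusted p = 0.764). HSPA1L, HSPA1A and HSPA1B lie together on chromosome 7, between bases 23910078 and 23929754 of Sscrofa11.1. HSPA1L was listed at 12.2 to 335 FPKM in high and 24.98 to 182 FPKM in low IMF animals, HSPA1B at 3.63 to 29.6 and 0.786 to 33.8 FPKM, and HSPA1A at 0 to 13.1 and 0 to 7.69 FPKM. None of these 4 genes has a reference transcript listed under its symbol. ENSSSCT00000026311, listed without a symbol, overlaps the HSPA1L transcript MSTRG.13277.2 on the other strand over 12671 bases and is in none of these sums. The HSPA1L transcripts also overlap those of HSPA1A and HSPA1B on the other strand. HSPA1A and HSPA1B are nearly identical copies. The division of reads among the HSPA1L, HSPA1B and HSPA1A loci is therefore uncertain. Their log2 fold changes were -0.24, 0.74 and 0.47, with limma adjusted p from 0.704 to 0.930.

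HSPA13, an HSP70-like ATPase of the microsomes, was low, with means of 0.979 ± 0.356 FPKM in high and 0.887 ± 0.580 FPKM in low IMF animals (SD, n = 12 each). HSPA2, HSPA12B and HSPA14 complete the family, with mean levels from 2.16 to 7.19 FPKM in either group and log2 fold changes from -0.012 to 0.17. HSPA8P5, whose single listed transcript overlaps HSPA8 on the other strand, had means of 7.04 ± 4.52 and 5.02 ± 1.77 FPKM (SD, n = 12 each), and its reads cannot be told apart from those of HSPA8 unless the counting used strand, on which the sources used here say nothing.

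Neither HSP90 gene was called, and HSP90AA1 spread much wider than HSP90AB1. HSP90AA1, the heat-inducible form, lay at 15.5, 271 and 894 FPKM in high IMF and at 24.1, 204 and 620 FPKM in low IMF animals. High IMF animals 4, 11 and 3 and low IMF animal 5 lay between 15.5 and 28.5 FPKM, and the other 20 animals at 140 FPKM or more. The log2 fold change was -0.13 (SE 0.60, limma adjusted p = 0.975), although the mean in FPKM was higher in high IMF, at 330 ± 276 against 252 ± 156 FPKM (SD, n = 12 each). HSP90AB1, the constitutive form, stayed between 71.8 and 255 FPKM over all animals, with means of 127 ± 35.3 and 113 ± 48.2 FPKM (SD, n = 12 each) and a log2 fold change of 0.20 (SE 0.17, limma adjusted p = 0.792). HSP90AA1 lies on the unplaced scaffold AEMK02000452.1 in the deposited table, as does BAG5.

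The mitochondrial chaperonin is a barrel of HSPD1 closed by a lid of HSPE1. HSPE1 had the smallest p of all members (limma p = 0.0151, adjusted p = 0.544). It lay at 227, 407 and 561 FPKM in high IMF and at 178, 264 and 566 FPKM in low IMF animals, and 9 of 12 high IMF animals exceeded the low IMF median. Low IMF animal 10 was the highest of all, so the ranges overlapped, and the log2 fold change was 0.45 (SE 0.17), with means of 397 ± 113 and 292 ± 101 FPKM (SD, n = 12 each). HSPD1 lay at 7.41, 56.6 and 92.8 FPKM in high IMF and at 13.4, 41.4 and 56.3 FPKM in low IMF animals, with a log2 fold change of -0.052 (SE 0.35, limma adjusted p = 0.983). High IMF animals 1, 12 and 2 and low IMF animal 10 were at 7.41 to 15.6 FPKM, and the other 20 animals at 36.2 FPKM or more.

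**Figure D2:**
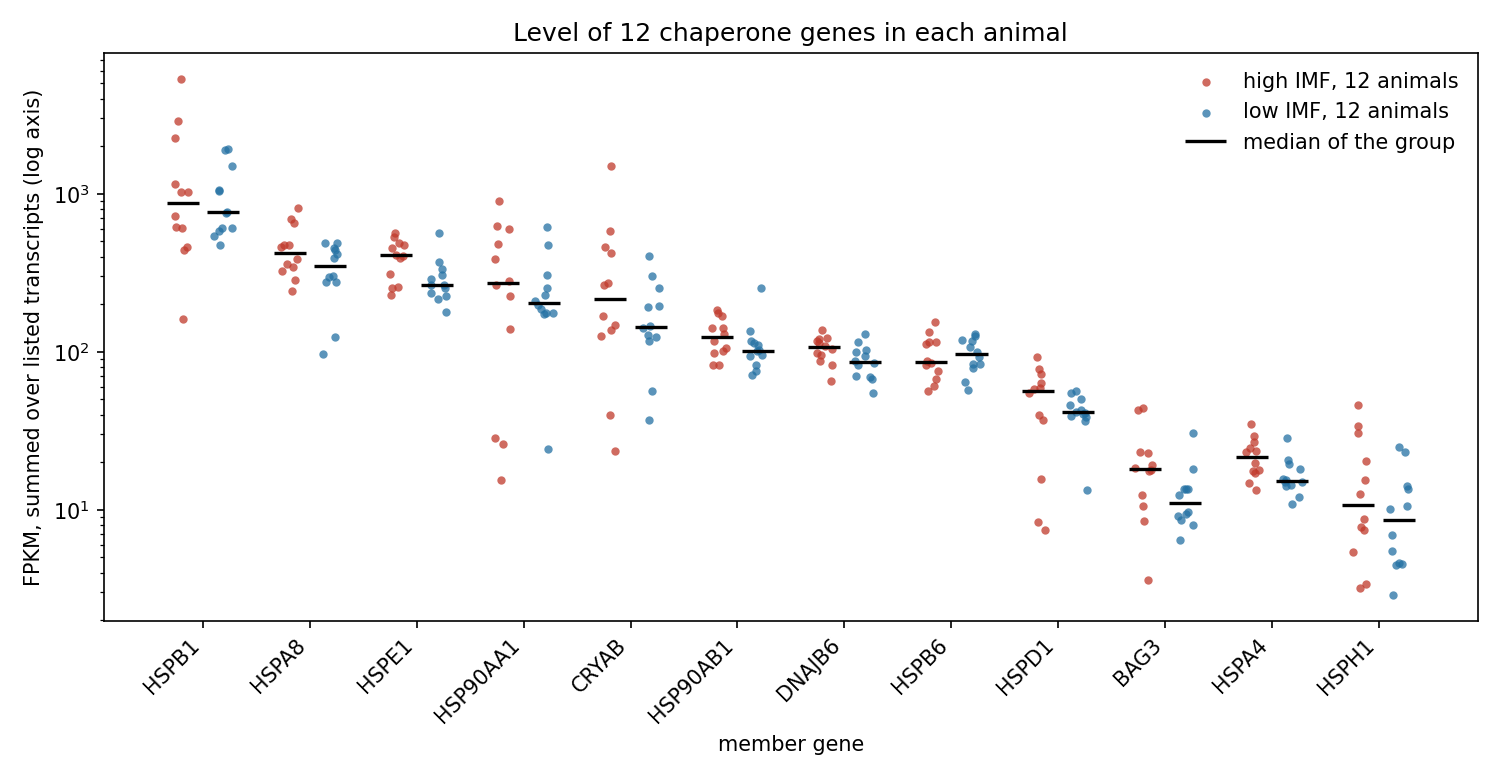
FPKM of 12 members in each animal (log axis), red for 12 high IMF and blue for 12 low IMF animals, with the group medians as black lines. The groups overlap for each of the 12 genes, and HSP90AA1 and HSPD1 each have 4 animals far below the rest.

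Of the 34 J proteins, 25 were above 0, with a median log2 fold change of 0.12 (0.027 under TMM scaling), and none had an unadjusted p under 0.05. DNAJB6, a J protein of the Z-disc whose mutations cause limb-girdle muscular dystrophy, was the most abundant. It lay at 65.0, 106 and 138 FPKM in high IMF and at 55.1, 86.3 and 130 FPKM in low IMF animals, and 10 of 12 high IMF animals exceeded the low IMF median. The ranges overlapped, and the log2 fold change was 0.25 (SE 0.13, limma adjusted p = 0.663).

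DNAJA1, DNAJB1 and DNAJB4 are the heat-inducible partners of cytosolic HSP70. DNAJA1 ranged from 10.9 to 71.2 FPKM in high and from 5.28 to 35.1 FPKM in low IMF animals, and DNAJB1 from 12.4 to 104 and from 14.2 to 47.6 FPKM. DNAJB4 had means of 30.6 ± 16.4 FPKM in high and 19.98 ± 11.9 FPKM in low IMF animals (SD, n = 12 each). High IMF animals held the top values of all 3 genes, yet the low IMF ranges lay almost wholly inside the high IMF ranges of DNAJA1 and DNAJB1. The log2 fold changes were 0.50, 0.17 and 0.59, with limma adjusted p of 0.704, 0.897 and 0.717.

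Other J proteins stayed within narrower ranges. DNAJC7, which binds HSP70 and HSP90 at once, had means of 57.0 ± 9.70 and 50.3 ± 7.52 FPKM, and DNAJC11, a protein of the mitochondrial cristae, had means of 11.8 ± 1.47 and 10.4 ± 2.13 FPKM (SD, n = 12 each). Their log2 fold changes were 0.17 and 0.19, and 10 of 12 high IMF animals exceeded the low IMF median of either gene. DNAJC14, DNAJC24 (an enzyme cofactor of diphthamide synthesis) and DNAJC28 had means below 4 FPKM in both groups and log2 fold changes of 0.26, 0.19 and 0.35. All 5 had limma adjusted p between 0.659 and 0.695.

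The J proteins with a log2 fold change below 0 were few, and none differed beyond the spread of the animals. DNAJB5 had means of 12.2 ± 7.06 and 13.6 ± 5.56 FPKM, DNAJB2 of 19.2 ± 14.8 and 18.6 ± 7.72 FPKM, and DNAJA3, the mitochondrial J protein, of 19.0 ± 6.14 and 19.7 ± 2.22 FPKM (SD, n = 12 each). Their log2 fold changes were -0.21, -0.16 and -0.13, although the mean of DNAJB2 in FPKM was slightly higher in high IMF. DNAJC5, the cysteine string protein of secretory vesicles, had a log2 fold change of -0.16 (SE 0.12, limma adjusted p = 0.742), and DNAJC25, DNAJC30 and DNAJA4 had -0.05, -0.04 and -0.017. DNAJA4 showed how far single animals reached, with 32.5 FPKM in high IMF animal 6 and a median of 3.60 FPKM in its group; its mean was 6.03 FPKM in high and 4.92 FPKM in low IMF animals, against the sign of its log2 fold change.

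The 5 tested BAG genes were all above 0, with a median of 0.14, and 3 of them under TMM scaling. BAG3, the co-chaperone of HSPB8 in the disposal of damaged filamin, lay at 3.62, 18.1 and 43.8 FPKM in high IMF and at 6.46, 11.09 and 30.8 FPKM in low IMF animals. The high IMF group held both the highest and the lowest animal, and the log2 fold change was 0.49 (SE 0.29, limma adjusted p = 0.704). The 26 tested members without values of their own in the design had means from 0.586 to 46.8 FPKM and log2 fold changes from -0.024 to 0.30. Of these, 23 were above 0, and the smallest limma adjusted p was 0.704.

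By compartment and regulation the picture was similar. The list of heat-inducible members holds HSPA1A, HSPA1B, HSPA1L, HSPA8, HSPH1, DNAJB1, DNAJB4, DNAJA1, HSPB1, HSPB8, CRYAB, HSP90AA1, HSP90AB1, HSPD1, HSPE1 and BAG3. HSPA8 and HSP90AB1 on it are mainly constitutive, HSPA1L is known from the testis and shares the HSPA1 locus, and HSPA6 is not on it. These 16 members had 13 log2 fold changes above 0 and a median of 0.44, and 11 and 0.33 under TMM scaling, with HSPE1 the single one at an unadjusted p under 0.05. The 11 members of the endoplasmic reticulum had 9 above 0 and a median of 0.11, and the 8 mitochondrial members 5 above 0 and a median of 0.11. Beside these counts stand 73.4% of all genes above 0 and a median of 0.077.

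The heat-inducible members varied widely between animals. The SD of log2(FPKM + 1) over the 24 animals was 1.56 for HSP90AA1, 1.33 for CRYAB, 1.29 for HSPA1A, 1.25 for HSPA1L, 1.23 for HSPA1B, 1.06 for HSPB1, 1.04 for HSPH1 and 1.02 for DNAJB4. HSPA6, which the list does not hold, had 1.48. Among genes averaging 10 FPKM or more, the median SD was 0.91 for 15 heat-inducible members, 0.38 for 20 other members and 0.34 for all 2850 genes. An SD above 1 was reached by 7 of the 15, 1 of the 20 and 5.09% of all genes. Several of these genes are unevenly listed. The division of reads among the HSPA1 loci is uncertain, and HSP90AA1 has 4 animals far below the rest. The leading transcript was at 0 in 4 animals for CRYAB, in 3 each for HSPH1 and HSPA1B, and in 2 each for DNAJB4 and BAG3. DNAJA4, DNAJC10 and DNAJC15, outside the list, had such animals too. The part of this in the spread was not tested. The highest animal exceeded the lowest 72.2-fold for HSPA6, 63.4-fold for CRYAB, 57.6-fold for HSP90AA1 and 33.1-fold for HSPB1, but 3.20-fold for HSPA4 and 2.75-fold for HSPB6.

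Some animals were often among the highest. High IMF animal 10 was among the 3 highest in 12 of the 16 heat-inducible members and above the median in all 16. High IMF animal 6 was among the 3 highest in 9 and the highest of all in 5, high IMF animal 2 was among the 3 highest in 7, and low IMF animal 10 in 4. High IMF animal 5 was above the median in 15 of the 16, low IMF animal 10 and high IMF animal 6 in 14, and high IMF animal 2, low IMF animal 2 and low IMF animal 11 in 13. At the other end, high IMF animal 12 was among the 3 lowest in 8 of the 16 and low IMF animal 4 in 6, although the latter was among the 3 highest in 2. Counted by the 3 highest and the 3 lowest, the animal most often high and the one most often low were both of the high IMF group. By the median, high IMF animal 12 and low IMF animal 8 were lowest, above it in 1 each. Low IMF animal 12 followed with 2 and low IMF animal 9 with 3. Without high IMF animals 6 and 10 the count of members higher at an unadjusted p under 0.05 was 1, beside 6.34% of all genes. In bulk muscle, fewer cells of a type and less RNA per cell cannot be told apart.

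**Figure D3:**
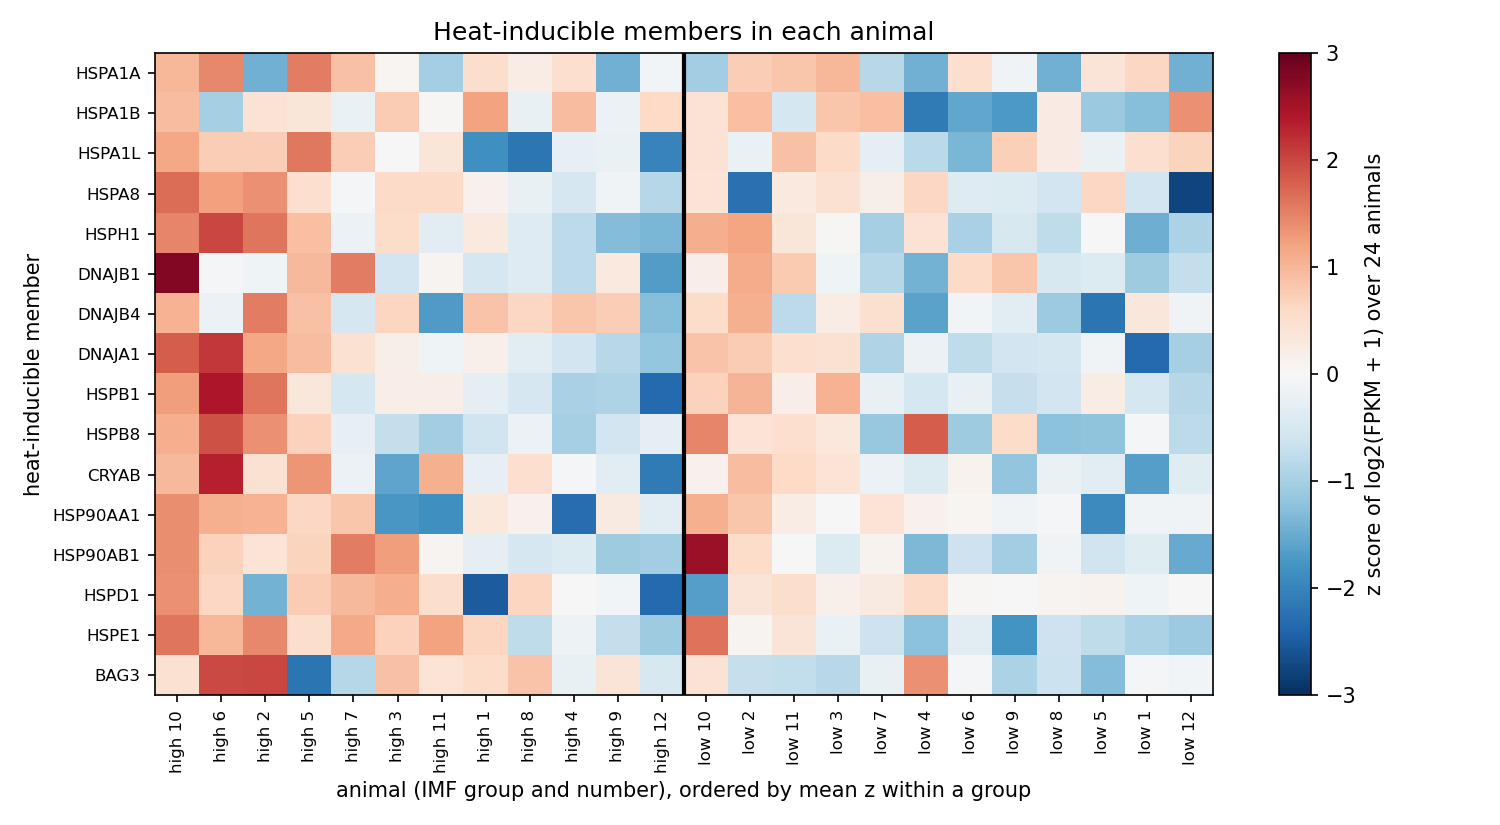
Each column is 1 animal and each row 1 of the 16 heat-inducible members; colour gives the z score of log2(FPKM + 1) over the 24 animals, and the black line parts high from low IMF. High IMF animals 10, 5, 6 and 2 and low IMF animals 10, 2 and 11 are above the median in at least 13 rows. High IMF animal 12 and low IMF animal 8 are above it in 1 each.

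Several heat-inducible members were correlated across animals. Correlations of log2(FPKM + 1) were computed for 123 pairs, 11 chosen pairs (partners, paralogs, neighbouring genes, and HSPB6 with the slow fibre gene MYH7) and 112 further pairs among the 16 heat-inducible members, with 2-sided permutation tests of 100000 resamples and Benjamini-Hochberg adjustment over the 123. Of these, 22 had an adjusted p under 0.05 by Pearson's r, all with positive r, and 21 of these 22 also by Spearman's rho. Pearson's r was above 0 in 111 pairs, with a median of 0.33, which was 0.31 under TMM scaling and 0.23 without high IMF animals 6 and 10. No such values are at hand for pairs of other genes, so these counts do not show a relation particular to the heat-inducible members.

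The closest pair was HSPH1 with DNAJA1, an exchange factor and a J protein of the same HSP70 cycle. Pearson's r was 0.94 and Spearman's rho 0.96 (n = 24; permutation p = 1e-05 for each, the smallest the resamples can give; adjusted p = 0.000307). Without the 2 animals farthest from the HSPH1 median, r was 0.92, and it was 0.96 within high and 0.91 within low IMF animals. HSPH1 with HSPB1 had r = 0.85 and rho = 0.82, and HSP90AB1 with HSPE1 had r = 0.84 and rho = 0.86, at the same permutation p and adjusted p. Without the 2 farthest animals these were r = 0.78 and r = 0.82. DNAJA1, HSPH1, HSPB1 and HSPE1 took part in 8, 7, 6 and 6 of the 22 pairs, while HSPA1A, HSPA1B, HSPA1L, DNAJB4, HSPD1 and BAG3 took part in none. The 22 were counted by Pearson's r, and further pairs passed by Spearman's rho alone. Among them were HSPA1L with DNAJB1 (rho = 0.56, permutation adjusted p = 0.022) and HSPA1B with DNAJB4 (rho = 0.54, permutation adjusted p = 0.0313). DNAJA1 with HSP90AA1 was another (rho = 0.65, permutation adjusted p = 0.00658).

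HSPB1 with CRYAB, which assemble into mixed complexes, had r = 0.74 and rho = 0.72 (n = 24, permutation adjusted p = 0.000879 and 0.00164), and r fell to 0.52 without high IMF animals 6 and 12. HSPB1 with HSPB6 showed no such relation, with r = -0.17 and rho = -0.11 (n = 24, permutation adjusted p = 0.539 and 0.692). CRYAB with HSPB2, neighbours on chromosome 9, had r = 0.45 and rho = 0.42 (n = 24, permutation adjusted p = 0.108 and 0.0908). Their listed transcripts overlap on opposite strands, the leading HSPB2 transcript with the added CRYAB isoform over 3538 bases. The part of shared reads in this r was not tested. BAG3 with HSPB8 had r = 0.38 and rho = 0.28, and HSPB6 with MYH7, the slow myosin heavy chain, r = 0.16 and rho = 0.18, with permutation adjusted p from 0.178 to 0.575.

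HSPA8 and its J protein DNAJA1 were correlated over all animals. Over 24 animals r was 0.55 and rho 0.67 (permutation adjusted p = 0.0296 and 0.00548), and r was 0.90 within high and 0.20 within low IMF animals, a difference that was not tested. HSPA8 with HSPH1 had r = 0.52 and rho = 0.67 over 24 animals, 0.90 within high and 0.16 within low IMF animals. Low IMF animals 2 and 12 had the lowest HSPA8 levels. Without high IMF animals 6 and 2, the 2 farthest from the HSPH1 median, r of HSPH1 with HSPA8 was 0.40. HSPH1 with DNAJB1 had r = 0.44 and rho = 0.44 (permutation adjusted p = 0.108 and 0.0831).

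The chosen pairs with HSPD1 or HSP90AA1 are also given over the larger cluster of animals, because 4 animals of either gene stood far below the rest. That division was made after the values were seen, on a gene of the pair itself, so no p is given for it. Further pairs with these genes, such as HSPB8 with HSP90AA1, were counted over all 24 animals. HSPD1 and HSPE1 are neighbouring genes on chromosome 15 whose products form 1 complex. They had r = 0.76 and rho = 0.68 over the 20 animals at 36.2 FPKM of HSPD1 or more, and r = 0.67 without the 2 farthest. Over all 24 animals the same pair had r = 0.034 and rho = 0.27, with r = 0.32 within high and -0.57 within low IMF animals, so its relation rests on the 4 animals being set aside. Over the 20 animals at 140 FPKM of HSP90AA1 or more, r was 0.82 with HSPH1 and 0.83 with HSP90AB1 (rho = 0.77 and 0.81). The 4 low animals of each gene are too few for a value of their own. Over all 24 animals, HSPH1 with HSP90AA1 had r = 0.43 and rho = 0.59 (permutation adjusted p = 0.117 and 0.0145), and HSP90AA1 with HSP90AB1 r = 0.34 and rho = 0.58 (permutation adjusted p = 0.213 and 0.0174). Both thus passed by Spearman's rho and not by Pearson's r, and HSPD1 with HSPE1 passed by neither.

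**Figure D4:**
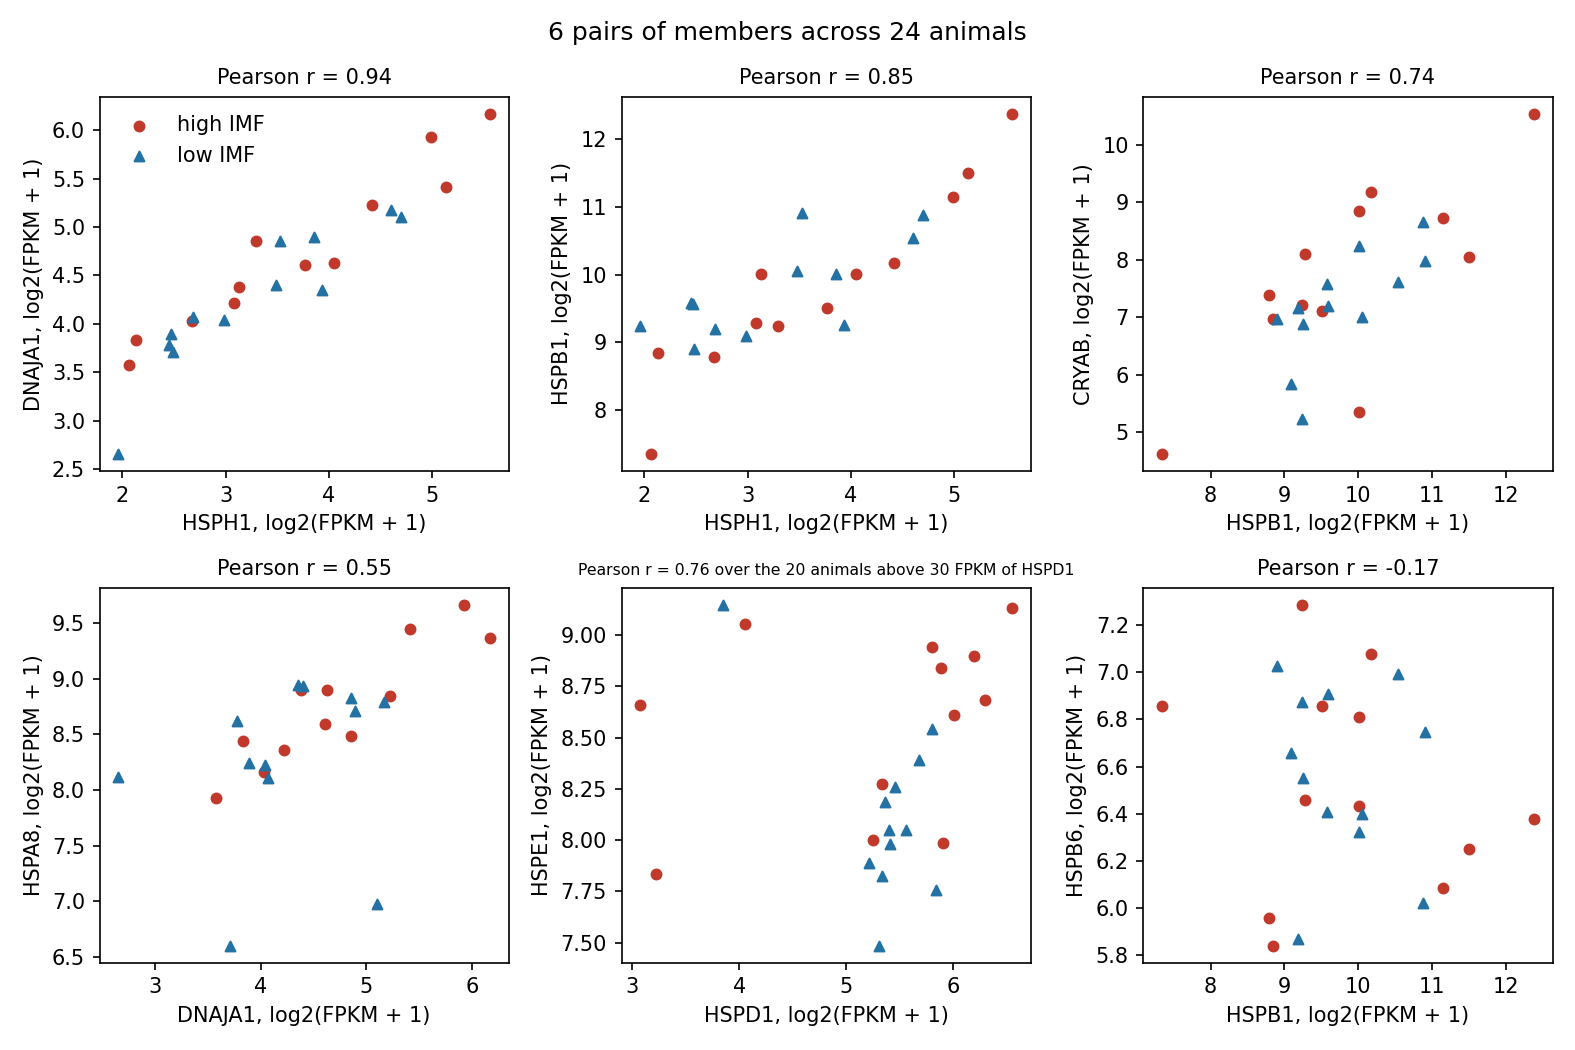
Log2(FPKM + 1) of 6 pairs of members in 24 animals, red circles for high and blue triangles for low IMF. HSPH1 with DNAJA1 lies close to a line (r = 0.94), DNAJA1 with HSPA8 has 2 low IMF animals far below the others, and HSPD1 with HSPE1 has 4 animals at low HSPD1 apart from the other 20.

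Of the 154 member transcripts, 95 are reference transcripts, 42 are isoforms that the assembly added and 17 have neither status, and 10 members have no reference transcript. For 28 members a listed transcript overlaps another on the opposite strand, and the kit named in the labels is not stated to keep strand. The HSPB1 sum holds such a transcript, with 55.3 ± 77.8 FPKM in high and 52.6 ± 46.3 FPKM in low IMF animals (SD, n = 12 each). HSPB6, CRYAB with HSPB2, and HSPA8 with HSPA8P5 are further cases. Taken as units, 148 of the 154 member transcripts were tested, and 8 (5.41%) were higher and 1 (0.676%) lower in high IMF at an unadjusted p under 0.05, beside 5.25% and 1.09% of all transcripts. None passed at an adjusted p under 0.05, beside 0.0187% of all transcripts called higher.

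The member transcript with the smallest p belonged to DNAJB9, a J protein of the endoplasmic reticulum that is induced by unfolded proteins there; it was named after its values were seen. This reference transcript, ENSSSCT00000018131, had means of 4.26 ± 1.87 FPKM in high and 1.79 ± 1.68 FPKM in low IMF animals (SD, n = 12 each) and a log2 fold change of 1.10 (SE 0.28, limma p = 0.000582, adjusted p = 0.352). The sum over the 3 DNAJB9 transcripts differed little, at 12.6 ± 3.91 and 11.02 ± 3.27 FPKM. In the authors' deposited table its p-value is 0.000911, the smallest among the members, its ratio of low over high IMF is 0.440, and its 3 kinds of q-value are 0.673, 0.425 and 0.223. That deposited table has 6 member transcripts (3.90%) with a p-value under 0.05 and higher in high IMF, beside 3.84% of all listed transcripts, and 0 higher in low IMF, beside 2.55%. No member transcript there has a q-value of any kind under 0.05.

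The share of a gene's FPKM held by its most abundant transcript was tested for the 41 members with at least 2 transcripts and a mean of at least 1 FPKM, among 4951 such genes of the table. Of the members, 4 (9.76%) had an unadjusted p under 0.05, beside 5.19% of all genes, and none passed after adjustment over the 4951 genes (smallest adjusted p = 0.916, permutation test). DNAJC5 had the smallest p. Its leading transcript, MSTRG.6585.4, on chromosome 17 between bases 62754496 and 62780427, held 46.8%, 80.2% and 92.7% (lowest, median and highest) in high IMF and 82.0%, 90.01% and 95.4% in low IMF animals. The share was lower than the low IMF median in 11 of 12 high IMF animals, with means of 77.8% ± 12.4 and 90.02% ± 3.44 (SD, n = 12 each; permutation p = 0.00021, 2-sided).

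Other transcripts took its place in different animals. High IMF animals 7 and 8 had more of a second added isoform, while high IMF animals 1, 2, 3, 5, 9 and 12 had more of the reference transcript ENSSSCT00000056454. That reference transcript had means of 1.46 ± 1.23 FPKM in high and 0.468 ± 0.426 FPKM in low IMF animals (SD, n = 12 each). Over the 12 animals whose identifiers begin with DLC1512 the means of the share were 74.6% in high and 92.4% in low IMF animals. Over the 12 beginning with DLC1601 they were 81.1% and 87.7%. DNAJC5 was picked by its p over these same animals, so the values within the identifier sets are a description and no independent test. DNAJC19, a part of the mitochondrial import motor, and HSPA1L came next, with shares of 73.8% ± 9.76 against 66.1% ± 3.81 and 30.6% ± 27.8 against 62.0% ± 29.5 (SD, n = 12 each). DNAJB9 followed, with 51.8% ± 7.40 in high and 64.8% ± 16.8 in low IMF animals (SD, n = 12 each; permutation adjusted p = 0.916). Its share was below the low IMF median in all 12 high IMF animals.

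Shares swung widely between animals in general. For 20 of the 41 members (48.8%) the share ranged over more than 50 percentage points, as it did for 57.2% of all such genes, and in 8 members the leading transcript was at 0 in at least 1 animal. The leading CRYAB transcript was at 0 in high IMF animals 3, 8, 11 and 12, where an added isoform held most of the sum. The leading HSPD1 transcript was at 0.194 to 0.578 FPKM in high IMF animals 1, 2 and 12 and low IMF animals 2 and 10, against 22.1 FPKM or more in the others. In 4 of these 5 animals the sum for HSPD1 was low too, so the 4 low sums and the low main transcript coincided; how the authors' assembly divided reads there was not tested.

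**Figure D5:**
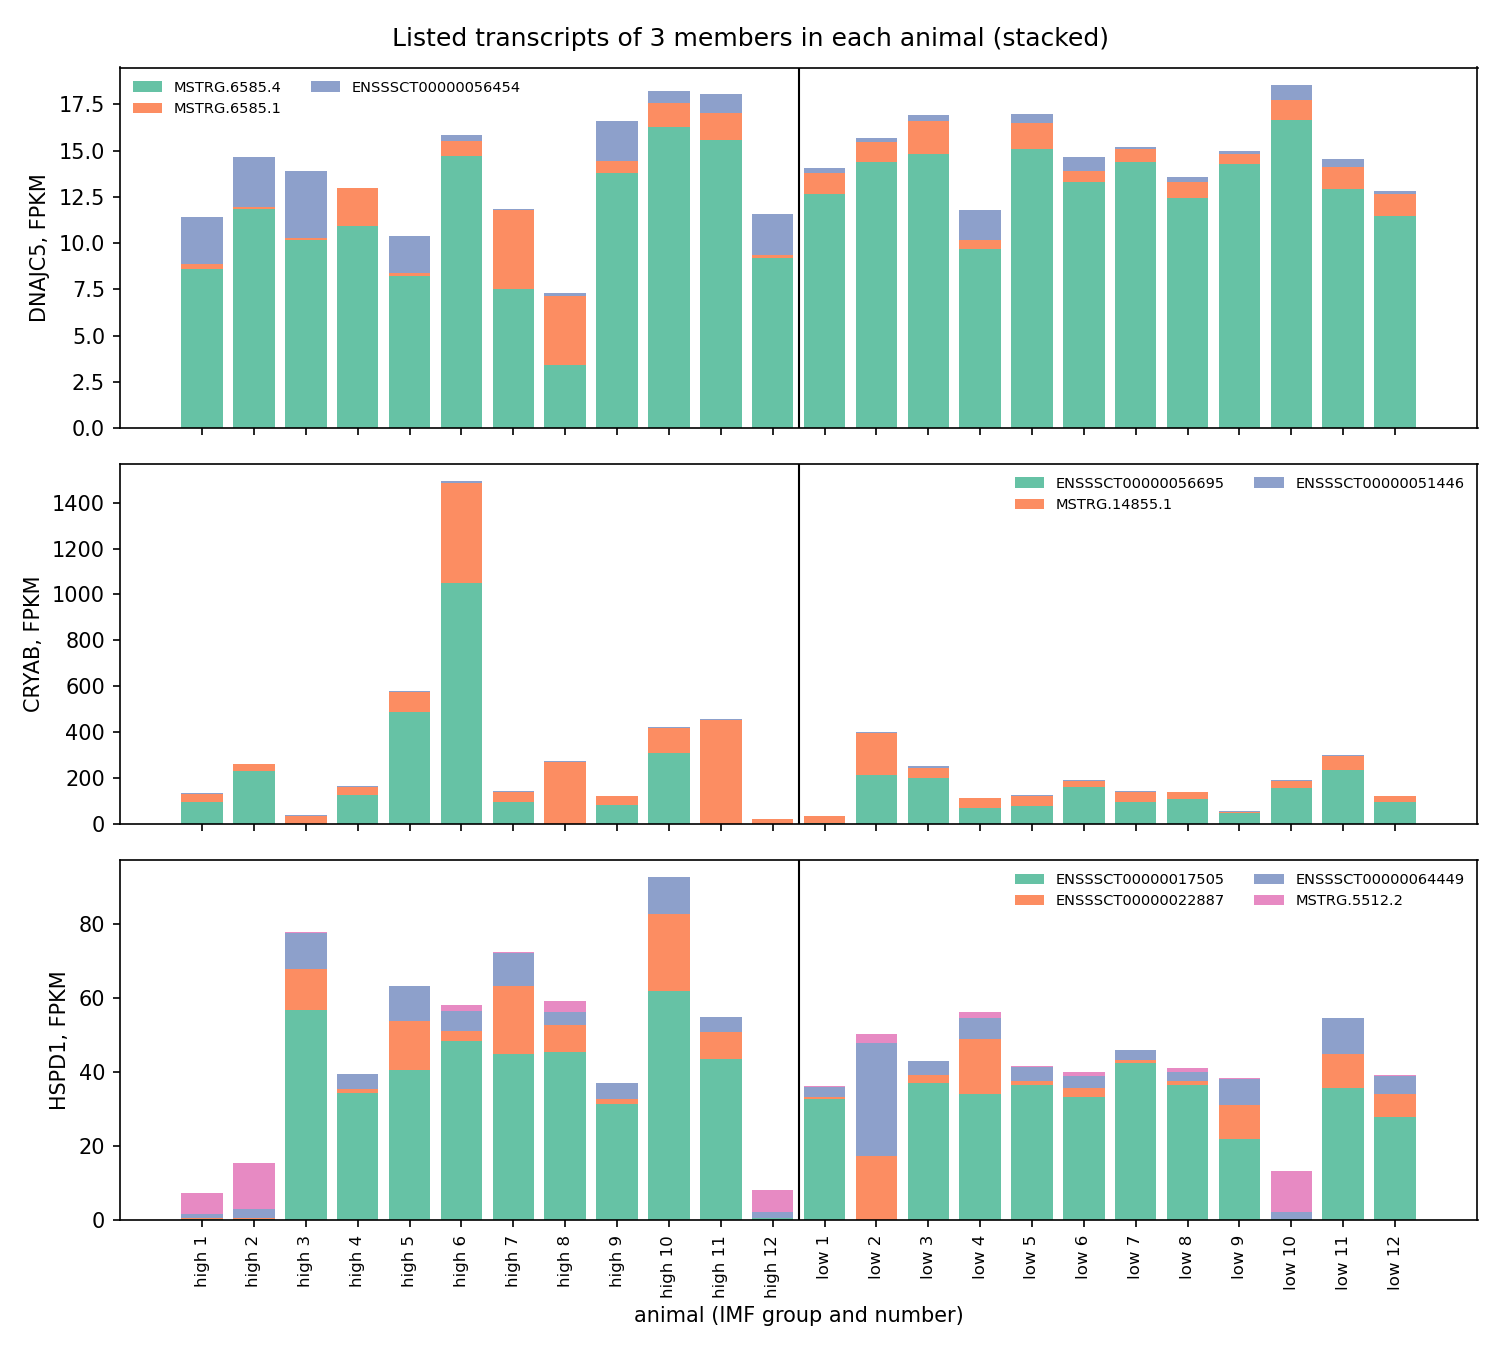
Stacked FPKM of the listed transcripts of DNAJC5, CRYAB and HSPD1 in each of the 24 animals, high IMF left and low IMF right of the line. The main HSPD1 transcript is below 1 FPKM in high IMF animals 1, 2 and 12 and low IMF animals 2 and 10, and the main CRYAB transcript is at 0 in high IMF animals 3, 8, 11 and 12.

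The animal identifiers begin with DLC1512 or DLC1601, 12 animals each and 6 of either IMF group in both; the labels do not say what the digits stand for. With IMF in the fit, 5 members (7.94%) were higher in the DLC1601 animals and 1 (1.59%) lower at an unadjusted p under 0.05, beside 3.25% and 3.23% of all genes. No member and no gene of the table passed after adjustment (limma adjusted p = 0.767 for each of these 6 members). DNAJA4 had medians of 5.45 FPKM in DLC1601 and 2.57 FPKM in DLC1512 animals, with a log2 difference of 0.90 (SE 0.33). The others higher in DLC1601 were the muscle-enriched HSPB2, HSPB6 and HSPB7, at log2 differences of 0.57, 0.32 and 0.51, and HSPA13 at 0.35.

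All 7 small heat shock proteins were above 0 in that comparison, with a median of 0.32, beside 54.1% of all genes and a median of 0.015. For HSPB6 the range was 79.1 to 134 FPKM in DLC1601 and 56.3 to 155 FPKM in DLC1512 animals, and 11 of 12 animals of DLC1601 exceeded the median of DLC1512. DNAJB4 was the 1 member lower in DLC1601, with medians of 18.6 and 30.9 FPKM and a log2 difference of -0.79 (SE 0.35). The IMF difference itself differed between the identifier sets for 4 members (6.35%) at an unadjusted p under 0.05, beside 3.29% of all genes, and for none after adjustment (smallest limma adjusted p = 0.998). The smallest p, 0.00707, was that of DNAJC14, with log2 fold changes of -0.085 in DLC1512 and 0.61 in DLC1601 animals.

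The wider chaperone machinery gave the same kind of result. Of 6 heat shock factors and regulators, 5 were measured; HSF1, the main inducer of heat shock genes, had means of 25.8 ± 5.96 FPKM in high and 24.6 ± 4.86 FPKM in low IMF animals (SD, n = 12 each). HSBP1, a small protein that binds heat shock factor 1, had means of 11.8 ± 1.95 and 9.86 ± 2.85 FPKM, and all 12 high IMF animals exceeded the low IMF median (log2 fold change 0.26, limma p = 0.0301, adjusted p = 0.608). Of 38 measured co-chaperones of HSP70 and HSP90 outside the families above, 37 were above 0 with a median of 0.11 (0.020 under TMM scaling), and 4 were higher at an unadjusted p under 0.05, beside 73.4% of all genes above 0 and 6.79% higher. AHSA1, which speeds the ATPase of HSP90, and STIP1, which links HSP70 to HSP90, had log2 fold changes of 0.40 and 0.61 with limma adjusted p of 0.563 and 0.571. The 11 measured subunits of the cytosolic chaperonin and prefoldin were all above 0, with a median of 0.21 (0.099 under TMM scaling), beside 73.4% and 0.077 for all genes, and none had an unadjusted p under 0.05. Among 10 partners of chaperone-assisted autophagy and desmin, TTN, the giant spring of the sarcomere, was the 1 at an unadjusted p under 0.05, with a log2 fold change of -0.96 (limma adjusted p = 0.518).

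Other cell types and states were read from marker genes. Adipocyte markers were measured in 13 of 13 cases, 8 were higher in high IMF at an unadjusted p under 0.05 and 1 after adjustment, and their sum was 364 to 654 FPKM in high and 299.9 to 549 FPKM in low IMF animals. ADIG was listed at 0 in 4 animals and PPARG in 1, and the other adipocyte markers in none. Immediate early genes (7 of 8 measured) summed to 61.6 to 481 FPKM in high and 80.6 to 409 FPKM in low IMF animals, and none had an unadjusted p under 0.05. Endothelial markers (5 of 6) summed to 24.7 to 58.4 and 15.5 to 51.3 FPKM, macrophage markers (5 of 7) to 3.99 to 12.4 and 1.47 to 21.9 FPKM, and blood markers (2 of 3) to 13.1 to 171 and 9.85 to 82.7 FPKM. At an unadjusted p under 0.05, 1 endothelial and 1 blood marker were higher and 1 fast fibre marker lower in high IMF, and the median blood sum was 74.5 FPKM in high and 36.9 FPKM in low IMF animals. The part of these in the members' values was not tested.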

How the data were processed

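PolyA RNA of 24 muscle samples, 12 high and 12 low IMF by the labels, was analysed from 1 deposited table of transcripts. HISAT2 2.0.5 and StringTie 1.3.3 are listed beside the build Sscrofa11.1 in the submitters' processing notes, without roles; the annotation release is not stated in the sources used. The authors deposited FPKM per transcript and animal, a unit inferred from the values, with a fold change (a ratio of low over high IMF), p-values and 3 kinds of q-value, per the file headers. Each listed transcript is above 0 in at least 19 of 24 libraries. The table states no read depth, so no counting interval is given.

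FPKM was summed per gene symbol and chromosome. Differences were fitted with limma 3.58.1 (R 4.3.3; trend, robust) on log2(FPKM + 1) for genes whose mean reached 0.5 FPKM; the added 1 FPKM shrinks fold changes of low genes. Fold changes are high minus low IMF. Permutation tests used numpy 2.4.6. Scripts were tested on simulated data. Isoform shares were adjusted over all genes in place of the members alone, a change made after the files were seen. The members, gene lists and rules were chosen with earlier results of these data known. Members described singly were the 10 of smallest p in each direction, the 10 of highest mean, the 6 of largest SD with a mean of at least 1 FPKM, all small heat shock, HSP90 and chaperonin genes, the 5 of smallest p between identifier sets and those of the listed pairs; of other lists, up to 2 of smallest p. DNAJB9, DNAJC19, HSPA2, HSPA12B, HSPA14 and HSF1 lie outside that rule. Alternatives covered scaling, pseudocount (0.1), filters, moderation, identifier digits, transcripts summed and animals left out. Sequences are not used here.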

Additional observations from a re-analysis of the deposited data

How the results depend on the processing

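No alternative brought a member to an adjusted p under 0.05: the smallest was 0.132 over 37 members. Of 394 fold changes recomputed for them under other settings 380 kept their sign, and of 888 with 1 animal left out 851 did. Members higher at an unadjusted p under 0.05 numbered 2 as reported, beside 6.79% of all genes. They numbered 1 under TMM (2.82% of all genes) and 1 under upper-quartile scaling (2.53%), the latter with 1 lower. Without high IMF animal 7 and low IMF animal 10 they numbered 11 (11.4%), and over reference transcripts 4 of 52 (6.97%). With transcripts as units, 8 were higher (5.25% of all transcripts) and 1 lower (1.09%). With 1 animal left out, 2 to 14 were higher (5.26% to 14.1% of all genes), with lower 0 to 0 and adjusted 0 to 0. 2 settings were chosen after seeing the data. The counts were 1 without high IMF animals 6 and 10 (6.34% of all genes), and 4 higher (3.27%) and 1 lower without low IMF animal 10 under TMM scaling. The median log2 fold change ranged from 0.11 to 0.19 with 1 animal left out. Members higher in the DLC1601 animals numbered 5, beside 3.25% of all genes. They numbered 3 without high IMF 7 and low IMF 10 and 2 to 7 with 1 animal left out (lower, 0 to 2). Isoform shares gave 4 members with all animals, beside 5.19% of all genes, and 4 to 6 with 1 animal left out. Counts without a share of all genes beside them cannot be set against the whole table.

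Signs turned for HSPB1 (-0.028 TMM, -0.038 upper quartile, -0.30 without high IMF 6 and 10), HSPB8 (-0.042, -0.052 and -0.20 likewise, and -0.12 with 1 animal per 9 shared identifier digits), HSPB2 (-0.000537 upper quartile, -0.013 without high IMF 6 and 10), DNAJA4 (0.16 without high IMF 7 and low IMF 10), CRYAB (-0.82) and DNAJC5 (0.61) over reference transcripts, and DNAJC25 (0.025) and HSPB6 (0.018) without high IMF 6 and 10. The causes were not tested. With 1 animal left out the ranges crossing 0 were -0.20 to 0.013 for DNAJA3, -0.27 to 0.12 for DNAJA4, -0.11 to 0.011 for DNAJC25, -0.071 to 0.019 for DNAJC30, -0.40 to 0.19 for HSP90AA1, -0.15 to 0.31 for HSPB1, -0.012 to 0.27 for HSPB2, -0.11 to 0.021 for HSPB6, -0.088 to 0.22 for HSPB8 and -0.19 to 0.15 for HSPD1. No paired analysis was possible because the labels carry no replicate numbers shared between the groups.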
